A study of Mus musculus with 38 samples.

Results

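The 9 genes described here encode the FOXO transcription factors *Foxo1*, *Foxo3* and *Foxo4* and 6 ubiquitin ligase proteins linked to muscle wasting, *Trim63*, *Fbxo32*, *Fbxo30*, *Fbxo31*, *Fbxo21* and *Fbxo40*. Their promoters were taken from a table of 10,819 promoter clusters of mouse soleus muscle measured by nAnT-iCAGE, a method that captures the capped 5′ ends of RNA without amplification and counts them as tags. A cluster was taken as a member when its highest peak lay within 500 bp, on the same strand, of a 5′ end of one of these genes in GENCODE vM21. Each of the 9 genes had exactly 1 such cluster, so that 9 of the 10,819 clusters are members and no gene was absent. A tag marks 1 RNA start whatever the length of the RNA, so levels can be compared between genes.

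All libraries were made from young adult male C57BL/6J mice, 1 library per mouse, from 1 or both soleus muscles. In experiment #1 the muscle was sampled late in the dark phase on day 1 with free food (Pre, n = 4), on day 2 after food removal, when such mice enter fasting-induced torpor (Mid, n = 8), and on day 3 after food was given back (Post, n = 4). Torpor was prevented on day 2 in fasted mice at high ambient temperature (HiT, n = 4) and in mice that kept their food at low ambient temperature (Fed, n = 4). In a last group of fasted mice, torpor was countered by gentle touching when oxygen use began to drop (Dep, n = 4). For Fed and HiT the sample labels and the design text disagree with the methods on which mice had food, and the methods were followed here. Experiment #2 was another batch of mice with 2 Pre, 5 Mid and 3 Post libraries.

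FOXO factors are held in the cytoplasm when insulin or IGF-1 signals through the kinase AKT. When the signal falls, as in fasting, they enter the nucleus and bind the promoters of genes for protein breakdown and autophagy. *Trim63* encodes MuRF1, a RING-finger ligase of the sarcomere, and *Fbxo32* encodes atrogin-1, an F-box protein that brings substrates to the SCF ubiquitin ligase complex. Both rise in many forms of muscle wasting and are used as its markers. *Fbxo30* (MUSA1) and *Fbxo21* (SMART) encode further F-box proteins that FOXO factors control in muscle, *Fbxo31* encodes an F-box protein known for the degradation of cyclin D1, and *Fbxo40* encodes a muscle-specific F-box protein that acts on the insulin receptor substrate IRS1.

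Coordinates are those of mm10. The *Foxo1* cluster is on chromosome 3, plus strand, from 52268331 to 52269471, with its peak at 52268416 in the annotated 5′ untranslated region, 80 bp downstream of the annotated 5′ end. *Foxo3* lies on the minus strand of chromosome 10 (42276525 to 42276792), with its peak 1 bp upstream of an annotated 5′ end and inside the untranslated region of another of its transcripts, and *Foxo4* on the plus strand of the X chromosome (101254080 to 101255241), where the peak at 101254162 is 366 bp upstream of the annotated 5′ end and outside any annotated transcript of the gene. The *Trim63* cluster is on chromosome 4, plus strand, from 134314782 to 134315482, and its peak at 134315118 is 2 bp upstream of an annotated 5′ end. *Fbxo32* is on the minus strand of chromosome 15 (58214495 to 58215424), *Fbxo30* on the plus strand of chromosome 10 (11281242 to 11281687), *Fbxo31* on the minus strand of chromosome 8 (121578417 to 121578956), *Fbxo21* on the plus strand of chromosome 5 (117976696 to 117977093) and *Fbxo40* on the minus strand of chromosome 16 (36990023 to 36990764). The peaks of these 5 clusters lay between 6 bp upstream and 237 bp downstream of an annotated 5′ end, and apart from that of *Fbxo31*, 2 bp upstream, they were in a 5′ untranslated region. Within 500 bp no member had more than 1 cluster, so use of alternative promoters was not compared. *Fbxo40* had 2 further clusters of low level, 810 and 1018 bp from an annotated 5′ end, with means of 2.95 and 5.13 TPM in experiment #1 beside 165 TPM. A window of 100 bp held 7 member clusters and one of 1000 bp held 10.

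The RefSeq promoter table for GRCm38.p6, which is the same build, held 7 of the 9 genes. For these, 250 bases before and 50 bases after the annotated start were searched on both strands for the FOXO site GTAAACA, the cAMP response element TGACGTCA, the E-box CACGTG, the TATA box TATAAA, and a glucocorticoid response element made of the half-sites AGAACA and TGTTCT with 3 bases between them and up to 2 mismatches. The *Trim63* promoter held 3 matches and the windows of the other 6 genes held none. The 250 bases before the start of *Trim63* (chr4:134314870-134315119, plus strand) and of *Foxo1* (chr3:52268087-52268336, plus strand) are shown to set the promoter of the ligase with the largest change beside that of a FOXO factor, 5′ to 3′, with motif matches in capitals.
Trim63: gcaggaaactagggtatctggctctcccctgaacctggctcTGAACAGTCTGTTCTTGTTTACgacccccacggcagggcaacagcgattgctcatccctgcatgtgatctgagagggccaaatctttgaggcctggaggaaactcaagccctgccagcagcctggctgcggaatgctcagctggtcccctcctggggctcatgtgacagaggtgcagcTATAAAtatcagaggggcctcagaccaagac
Foxo1: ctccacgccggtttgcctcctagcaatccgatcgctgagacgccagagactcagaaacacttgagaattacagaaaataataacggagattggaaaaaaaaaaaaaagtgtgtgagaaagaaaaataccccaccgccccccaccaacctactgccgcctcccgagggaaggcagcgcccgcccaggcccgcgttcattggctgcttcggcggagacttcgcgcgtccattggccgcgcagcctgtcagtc

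In *Trim63*, the glucocorticoid response element, with 1 mismatch, spans −209 to −195 from the start and is directly followed by the FOXO site on the other strand at −194 to −188, so that the capitals of both run together. The TATA box lies at −31 to −26. Of the 32851 mouse promoters of the same table, 3.65% held the FOXO site, 1.84% the glucocorticoid response element, 13.6% the TATA box, 7.15% the E-box and 1.79% the cAMP response element. The *Trim63* window had 57% GC and 7 CpG dinucleotides, and the windows of *Fbxo40* had 56% and 51.3% GC and 3 and 2 CpG dinucleotides. That of *Foxo1* had 61.3% GC and 31 CpG dinucleotides, and those of *Foxo3*, *Fbxo30*, *Fbxo31* and *Fbxo21* held between 27 and 47. For *Fbxo40* the CAGE peak lay 237 bp into the transcript, so its windows do not cover the region just before the observed start. The *Fbxo30* window starts at 11281337 and its CAGE peak is at 11281375, so only a short stretch before the peak was searched there. The *Foxo1* window ends at 52268386, before its CAGE peak at 52268416, so the bases directly before that peak were not searched. A match is a match of letters, and binding was not measured.

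Each library of experiment #1 held 18257657 to 39176649 tags within clusters, and each of experiment #2 held 9359994 to 20914855. Levels are given as normalised CPM, which are the deposited tag counts divided by the library size after TMM scaling, within each experiment. Changes were tested with the quasi-likelihood F test of edgeR over all clusters with any tag, 10,776 in experiment #1 and 10,816 in experiment #2, with Benjamini-Hochberg FDRs and a threshold of 0.05. Marker genes of slow fibres, which are abundant in the soleus, had a cluster for 7 of 7 genes, with a summed level of 6178 to 28348 TPM per library. Adipocyte markers (7 of 7, sum 163 to 1982 TPM), fast fibre markers (8 of 8, 8789 to 31198 TPM), endothelial markers (5 of 5, 115 to 234 TPM), tendon and fibroblast markers (6 of 6, 407 to 1008 TPM), red blood cell markers (4 of 5, 1115 to 12635 TPM) and macrophage markers (6 of 7, 32.1 to 407 TPM) were also present. In bulk muscle, a change in the share of a cell type and a change in the RNA per cell cannot be told apart. HiT_4 stood apart, with 40.3% of its tags in 10 clusters and a TMM factor of 0.68. Mid_6 had the next largest share, 31.5%, with a factor of 0.83. Post_1 (29.9%, factor 0.86) and Dep_4 (29.8%, factor 0.80) were close to Mid_6. Mid_6 had the lowest value of the 8 Mid libraries in 7 of the 9 members. Calls that change without Mid_6 or HiT_4 are named with their values.

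From the Pre to Mid, all 9 member promoters were up-regulated, against 15.4% of all promoters tested. The median log2 fold change of the members was 1.11, beside 0.01 over all promoters. The ranges of the Pre and Mid libraries did not overlap for 5 members, *Foxo1*, *Foxo3*, *Trim63*, *Fbxo32* and *Fbxo30*, while 7.54% of all promoters had every Mid library above every Pre library. When Mid_6 was left out it was 6 members, with *Fbxo31* added, and 11.6% of all promoters. From the Mid to Post all 9 were down-regulated, against 17.5% of all promoters, with a median log2 fold change of −1.27. Both comparisons use the same Mid libraries.

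**Figure D1:**
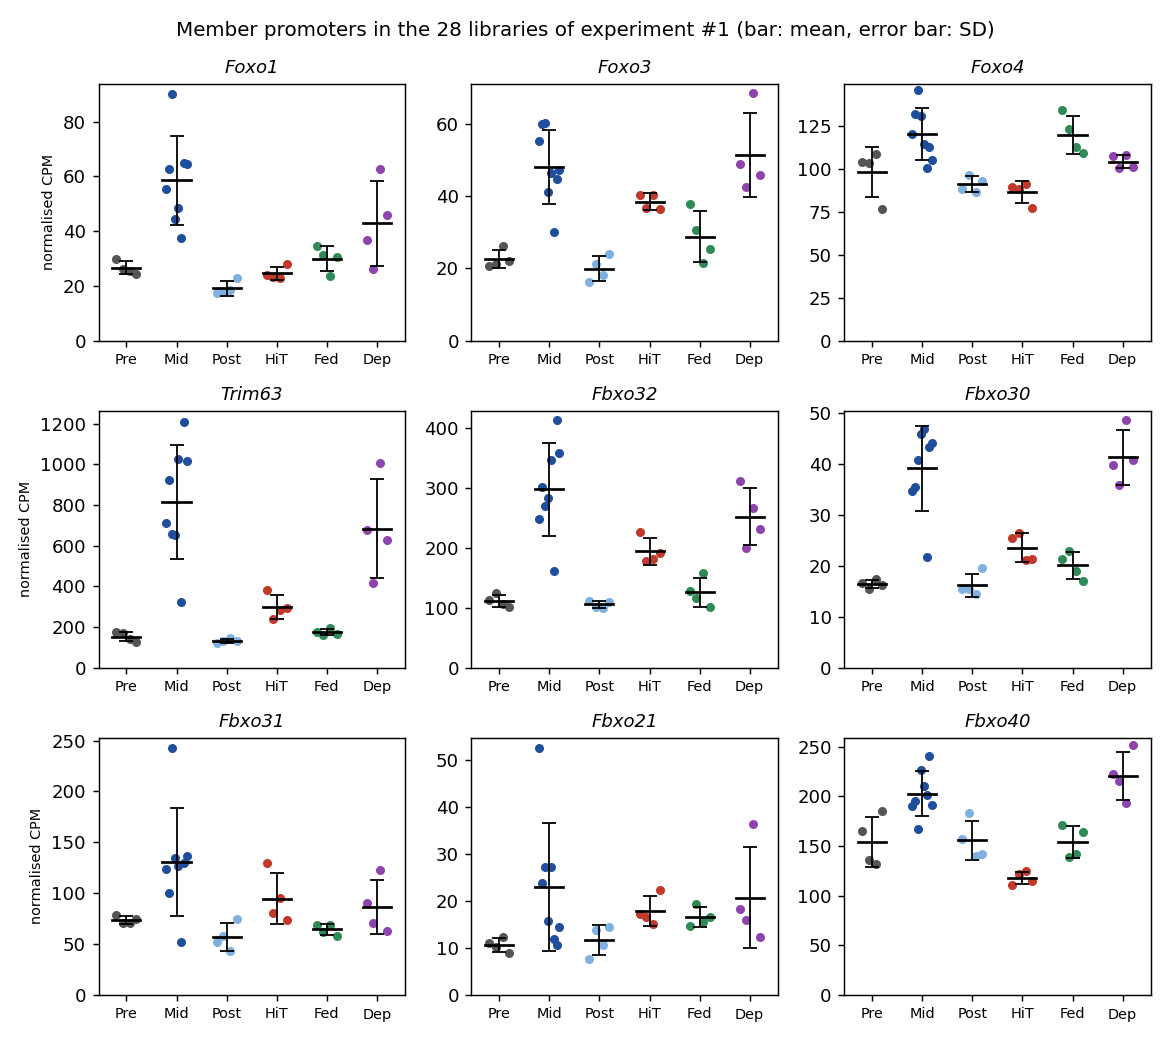
Normalised CPM (y axes, linear from 0) of the 9 member promoters in each library of experiment #1, by group (x axes). Points are libraries, the thick bar is the mean and the error bar the SD. *Trim63*, *Fbxo32* and *Fbxo30* are high in the Mid and Dep groups and low in the Pre, Post and Fed groups, with the HiT group between, while *Foxo1* in the HiT group (23.0 to 27.8) overlaps the Pre group (24.4 to 29.9).

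*Foxo1* had 29.9, 26.3, 25.6 and 24.4 normalised CPM in the Pre libraries. In the Mid group it ranged from 37.4 in Mid_6 to 90.2 in Mid_3, with a median of 59.1. In the Post libraries it had 17.3, 17.6, 18.3 and 22.9. All Mid libraries were thus above all Pre libraries, and all Post libraries were below both. *Foxo1* rose by 1.14 on the log2 scale in the Mid group (standard error 0.20, FDR 9.08e-05). After food was returned the log2 fold change was −1.62 (standard error 0.20, FDR 9.30e-07, edgeR). From the Pre to Post it was −0.48, which did not pass the threshold (FDR 0.343, edgeR) although the ranges did not overlap.

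*Foxo3*, the factor best known for driving *Fbxo32* and autophagy genes in muscle, had 20.6, 21.2, 26.1 and 22.1 normalised CPM in the Pre libraries. The Mid group ranged from 30.1 in Mid_6 to 60.4 in Mid_3, with a median of 46.9, and the Post libraries had 16.3, 21.2, 18.1 and 24.1. The Mid libraries were above all others of these groups. *Foxo3* rose by 1.1 on the log2 scale in the Mid group (standard error 0.17, FDR 2.29e-05), and its log2 fold change in the Post group was −1.27 (FDR 2.56e-06, edgeR).

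*Foxo4* was the most active of the FOXO promoters and the one that changed least. It had between 76.6 and 108.6 normalised CPM in the Pre group and between 101 and 146 in the Mid group, and these ranges overlapped. Its increase in the Mid group was 0.29 on the log2 scale (standard error 0.09, FDR 0.0172, edgeR). This call rested on Pre_4, the lowest Pre library, without which the log2 fold change was 0.19 (FDR 0.116), and it was also lost with upper-quartile scaling (FDR 0.0540) and in a fit of the Pre and Mid groups alone (FDR 0.103). From the Mid to Post it was −0.40 (FDR 0.00143), and here the Post libraries, at 86.5 to 96.7, lay below all Mid libraries.

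*Trim63* was the most active member by its mean over the 28 libraries of experiment #1 (419 TPM) and showed the largest change of the 9. In the Pre and Post groups the mean of *Fbxo40* was higher, with 154.4 and 155.7 normalised CPM against 152.7 and 132.0. *Trim63* had 174, 169, 140.1 and 128 normalised CPM in the Pre libraries. The Mid libraries ranged from 321 in Mid_6 to 1209 in Mid_7, with a median of 818, and the other 7 Mid libraries had 654 or more. The Post libraries had 121, 132, 145 and 129.7. The mean level was thus 5.34 times higher in the fit for the Mid than for the Pre group, with a log2 fold change of 2.42 (standard error 0.26, FDR 2.66e-07, edgeR). It ranked 116 of the 10,776 promoters by the size of this change. From the Mid to Post the log2 fold change was −2.63 (standard error 0.26, FDR 3.68e-08), rank 56. Without Mid_6 and HiT_4 it was 2.52 from the Pre to Mid.

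*Fbxo32* had 113, 125, 107 and 101 normalised CPM in the Pre libraries. The Mid group ranged from 161 in Mid_6 to 413 in Mid_7, with a median of 293, and the Post libraries had 112, 101, 100.3 and 110.2. All Mid libraries were above all Pre and Post libraries. *Fbxo32* rose by 1.42 on the log2 scale in the Mid group (standard error 0.17, FDR 1.50e-06), and its log2 fold change in the Post group was −1.49 (FDR 3.77e-07, edgeR).

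*Fbxo30* was less active, with 15.4 to 17.4 normalised CPM in the Pre group, 21.8 to 46.9 in the Mid group and 14.5 to 19.6 in the Post group. Its increase in the Mid over the Pre group, 1.26 on the log2 scale (standard error 0.15, FDR 9.66e-07, edgeR), came from Mid libraries that were all above the Pre libraries. *Fbxo31* ranged from 70.8 to 78.0 in the Pre group and from 52.1 to 243 in the Mid group, where Mid_6 was lowest and Mid_3 highest. The log2 fold change was 0.83 (standard error 0.25, FDR 0.0127, edgeR), and 0.93 without Mid_6 and HiT_4. *Fbxo21* had 8.89 to 12.4 in the Pre group and 10.7 to 52.6 in the Mid group. Its log2 fold change was 1.11 with the largest standard error of the members, 0.34 (FDR 0.0134, edgeR). From the Mid to Post it was −0.98 (FDR 0.0242), a call lost without Mid_1 (−0.68, FDR 0.0531), Post_1 (−0.82, FDR 0.0922) or Post_3 (−0.94, FDR 0.0683). The 2 libraries with the highest *Fbxo21*, Mid_1 at 52.6 and Dep_3 at 36.4, were also those with the highest sums of adipocyte markers in experiment #1, 1530 and 1982 TPM, and the part of adipose tissue in these values was not tested. The sum is mainly that of *Cfd* and *Fabp4*, with means of 434 and 128 TPM in experiment #1, where each other adipocyte marker had 13.82 TPM or less. *Fbxo40* had 132 to 185 in the Pre group and 167 to 241 in the Mid group, with a log2 fold change of 0.39 (standard error 0.10, FDR 0.00429, edgeR), the smallest of the 6 ligases.

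The HiT group shows which part of the change in the Mid group is shared by fasting without torpor in the warm. The Fed group shows which part is shared by mice sampled on the same day that kept their food. By the methods, ambient temperature was set before recording and then not changed, and no other temperature is given for the Pre mice. On this reading, Pre and Fed mice were both fed at low ambient temperature and differed in the day of sampling. Pre to Fed is thus not a test of low ambient temperature. HiT mice differed from Pre mice in food, temperature and day, which cannot be told apart. From the Pre to HiT, 4 members were up-regulated (*Trim63*, *Fbxo32*, *Fbxo30* and *Foxo3*) and 1 was down-regulated (*Fbxo40*), against 33.4% of all promoters called in either direction. In the HiT libraries *Trim63* had 382, 241, 283 and 293 normalised CPM, above every Pre library. Against the Pre group the log2 fold change was 0.97 for *Trim63* (standard error 0.27, FDR 0.00596), 0.80 for *Fbxo32* (FDR 0.00178), 0.78 for *Foxo3* (FDR 0.00207) and 0.53 for *Fbxo30* (FDR 0.0144, edgeR). *Foxo1* had 23.9, 23.4, 23.0 and 27.8 in the HiT libraries, with a log2 fold change of −0.12 against the Pre group (standard error 0.22, FDR 0.712, edgeR). *Fbxo21* had 15.1 to 22.4 in the HiT libraries, all above the Pre libraries (8.89 to 12.4), but was not called. It passed in a fit of the Pre and HiT groups alone (log2 fold change 0.72, FDR 0.00535, edgeR). *Fbxo40* had 110.4, 122, 124 and 115 in these libraries, below all Pre libraries, with a log2 fold change of −0.39 (FDR 0.0106). Without Pre_4 this call of *Fbxo40* was lost (log2 fold change −0.29, FDR 0.0639), whereas *Foxo4*, at −0.18 (FDR 0.194), then passed (−0.28, FDR 0.0332). In counts scaled by library size alone, without TMM, *Fbxo40* was the only one of these 5 calls that remained. The log2 fold changes without TMM were 0.82 for *Trim63* (FDR 0.0720), 0.63 for *Fbxo32* (FDR 0.0777), 0.61 for *Foxo3* (FDR 0.0790) and 0.37 for *Fbxo30* (FDR 0.303, edgeR).

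From the HiT to Mid, 6 members were up-regulated and none down-regulated, where 19.2% of all promoters were up-regulated. *Trim63* was higher in the Mid group by a log2 fold change of 1.44 (standard error 0.24, FDR 4.04e-05) and *Foxo1* by 1.26 (standard error 0.20, FDR 1.60e-05, edgeR). All Mid libraries were above all HiT libraries for *Foxo1*, *Foxo4* and *Fbxo40*. For *Trim63* the exception was Mid_6, which at 321 was below HiT_1 at 382. The share of all promoters with every Mid library above every HiT library was not computed, so these ranges are given as a description. The other called members were *Fbxo40* (0.78), *Fbxo30* (0.73), *Fbxo32* (0.62) and *Foxo4* (0.47). *Foxo3* (0.32, FDR 0.111), *Fbxo31* (0.46, FDR 0.132) and *Fbxo21* (0.37, FDR 0.378) did not pass. Without Mid_6, *Foxo3* (0.42, FDR 0.0185) and *Fbxo31* (0.60, FDR 0.0163) passed, but without both Mid_6 and HiT_4 neither did (FDR 0.0705 and 0.0865). *Fbxo31* also passed without HiT_1 (0.68, FDR 0.0474). The HiT libraries had *Foxo3* at 36.4 to 40.5, above all Pre libraries, and *Foxo1* within or just below the Pre range. Whether the responses of these genes differ was not tested.

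The HiT libraries also carried more RNA of macrophage genes. The 6 macrophage markers with a cluster (*Cd68*, *Csf1r*, *C1qa*, *C1qb*, *Mrc1* and *Lyz2*) were all up-regulated from the Pre to HiT and down-regulated from the HiT to Mid, and their sum was 132 to 407 TPM in the HiT libraries against 32.1 to 92.0 TPM in all other libraries of experiment #1. The sum was highest in HiT_1, which also had the highest *Trim63*, *Fbxo32*, *Fbxo31* and *Foxo3* of the HiT group in normalised CPM. *Foxo3* was nearly as high in HiT_3 (40.4 beside 40.5), where the sum was lowest. *Fbxo30*, *Foxo1*, *Fbxo21* and *Foxo4* were highest in other HiT libraries, and *Fbxo40* was lowest in HiT_1. Red blood cell markers were down-regulated in 3 of 4 genes from the Pre to HiT (median log2 fold change −0.82, edgeR). The part of these cells in the values of the members was not tested. Slow fibre markers were down-regulated from the Pre to HiT in 3 of 7 genes and fast fibre markers in 2 of 8. As a background to these marker counts, 18.5% of the whole tested set rose and 14.9% fell between Pre and HiT. Between HiT and Mid, 21.8% of that set fell. Whether the share of fibre types differed was not tested.

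From the Pre to Fed no member was called (edgeR, 0 of 9), against 11.2% of all promoters, and 0 were called by the likelihood ratio test and by DESeq2. At an unadjusted p below 0.05 there was 1 member, *Foxo4*, with 134, 123, 113 and 109.4 normalised CPM in the Fed libraries, all above the Pre libraries. Of all promoters, 27.3% were below this unadjusted p. The Fed libraries were also all above the Pre libraries for *Fbxo21* (14.6 to 19.4 against 8.89 to 12.4). For *Fbxo31* they were all below them (57.9 to 68.9 against 70.8 to 78.0). The share of all promoters with Pre and Fed ranges apart was not computed. *Fbxo21* passed in a fit of the Pre and Fed groups alone (log2 fold change 0.63, FDR 0.0232, edgeR). *Trim63* had 177, 163, 196 and 166 in the Fed libraries, which overlapped the Pre group. Its log2 fold change was 0.20, and the fold change with 1.96 standard errors ran from 0.80 to 1.64. In the Mid against the Fed group 7 members were higher, beside 16.6% of all promoters. The log2 fold changes were 2.22 for *Trim63* (standard error 0.26, FDR 5.53e-07), 1.24 for *Fbxo32*, 1.02 for *Fbxo31*, 0.97 for both *Fbxo30* and *Foxo1*, 0.75 for *Foxo3* and 0.40 for *Fbxo40* (FDR 0.00342, edgeR). *Fbxo21* (0.47, FDR 0.269) and *Foxo4* (0.01, FDR 0.966) did not pass. This comparison and the HiT to Mid comparison share their Mid libraries.

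**Figure D2:**
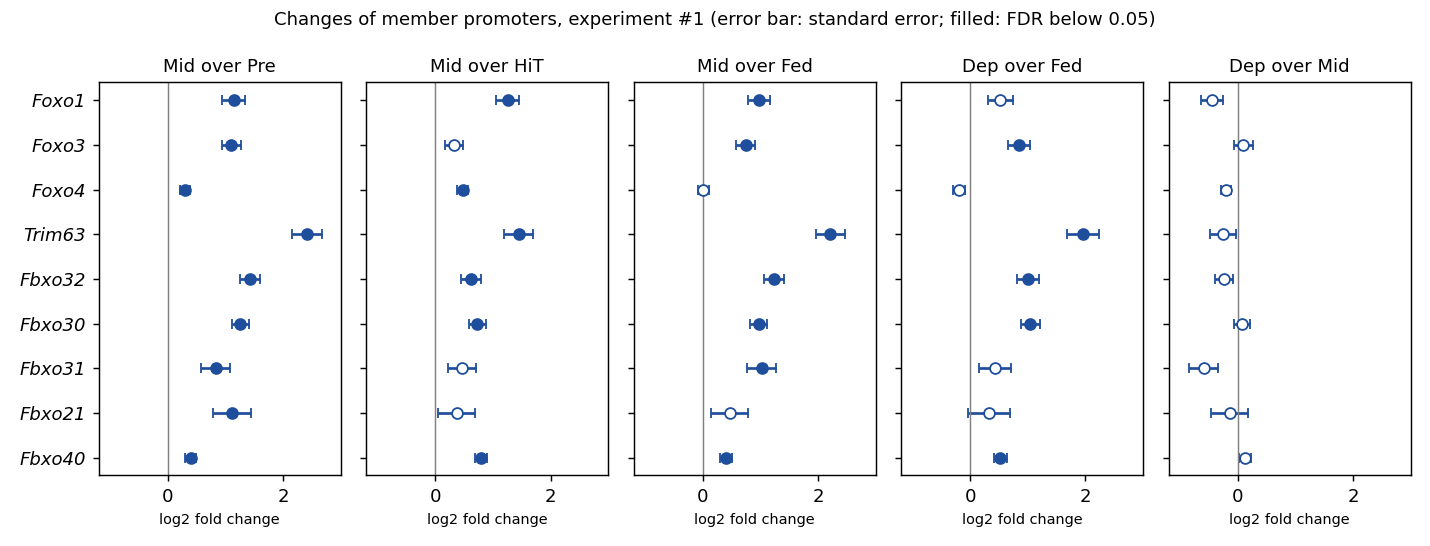
Log2 fold changes (x axes) of the 9 member promoters (rows) in 5 comparisons of experiment #1, with standard errors as error bars. Filled points passed an FDR of 0.05. All 9 points are filled for Mid over Pre, 6 for Mid over HiT, 7 for Mid over Fed, 5 for Dep over Fed and none for Dep over Mid.

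The Dep mice were fasted like the Mid mice and touched when their oxygen use began to drop. By the paper, this began hours after the time at which such mice usually enter torpor. The paper describes the Mid mice as a mix of torpid mice and mice between torpid phases. It gives the Dep mice an oxygen use like that of the metabolically non-torpid Mid mice. Mid to Dep is thus not a comparison of torpor with its absence alone. No member was called from the Mid to Dep (edgeR, 0 of 9), and over all promoters the share was 2.03%. The likelihood ratio test and DESeq2 also called 0, and at an unadjusted p below 0.05 there were 3 members, *Fbxo31*, *Foxo1* and *Foxo4*, all lower in the Dep group, beside 19.2% of all promoters at that cut-off. *Trim63* had 678, 418, 1006 and 627 normalised CPM in the Dep libraries, within the range of the Mid group. Its log2 fold change from the Mid to Dep was −0.26 (FDR 0.565, edgeR), and the fold change with 1.96 standard errors ran from 0.61 to 1.14. For *Fbxo32* the interval was 0.68 to 1.06, for *Foxo3* 0.86 to 1.33 and for *Fbxo30* 0.87 to 1.27. *Foxo1* had 36.6, 26.2, 62.9 and 45.7 in the Dep libraries, with an interval of 0.57 to 0.95, and *Fbxo31* had one of 0.47 to 0.92. *Fbxo31* passed without Mid_6 (log2 fold change −0.71, FDR 0.0488) and *Foxo1* without Dep_3 (−0.69, FDR 0.0491). Without both Mid_6 and HiT_4 *Fbxo31* was at −0.71 (FDR 0.0476). Dep_3, which had the highest adipocyte sum, was the highest of the 4 Dep libraries in 7 of the 9 members.

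The Dep mice differed from the Fed mice both in lacking food and in being touched, and these cannot be told apart. From the Fed to Dep, 5 members were up-regulated, against 18.6% of all promoters. These were *Trim63* (log2 fold change 1.96, standard error 0.27, FDR 6.08e-06), *Fbxo30* (1.04), *Fbxo32* (1.00), *Foxo3* (0.84) and *Fbxo40* (0.52, FDR 0.00103, edgeR), and the Fed and Dep ranges did not overlap in any of the 5, while 16.6% of all promoters had every Dep library above every Fed library. Red blood cell markers were down-regulated in 4 of 4 genes with a cluster, both from the Fed to Dep (median log2 fold change −0.87) and from the Fed to Mid (−0.80). Endothelial markers were down-regulated in 3 of 5 genes and up-regulated in 1 in both comparisons. Over all promoters, 20% were down-regulated from the Fed to Dep and 18.6% from the Fed to Mid. The red blood cell sum was 2717 to 12635 TPM in the Fed libraries, highest in Fed_2, and 1831 to 4089 TPM in the Dep libraries. The part of these cells in the member values was not tested. *Foxo1* was at 0.52 (FDR 0.0581) and passed with the likelihood ratio test (FDR 0.0484), with DESeq2 (FDR 0.0391), without Dep_2 (0.70, FDR 0.0128) and without Mid_6 and HiT_4 (0.51, FDR 0.0436). *Foxo4* was at −0.20 (FDR 0.132), with all Dep libraries (100.7 to 108) below all Fed libraries (109.4 to 134).

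From the Pre to Post no member was called (edgeR, 0 of 9), against 1.85% of all promoters, and 0 by the likelihood ratio test and DESeq2. At an unadjusted p below 0.05 there was 1 member, *Foxo1* (above), beside 12.8% of all promoters. The fold change of *Trim63* with 1.96 standard errors ran from 0.60 to 1.24 and that of *Fbxo32* from 0.73 to 1.22.

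Ordered by their means, the groups took the same order for *Trim63* and *Fbxo32*, from Post, Pre, Fed and HiT to Dep and Mid. For *Trim63* the neighbours Fed and HiT, and HiT and Dep, did not overlap, while Post and Pre, Pre and Fed, and Dep and Mid did. For *Fbxo32* and *Foxo3* the ranges of HiT and the next group overlapped. *Foxo1* ran from Post through HiT, Pre, Fed and Dep to Mid, with overlap between all neighbours after Post. *Fbxo40* was lowest in the HiT group, apart from all others, and highest in the Dep group. *Foxo4* was lowest in the HiT group and highest in the Mid and Fed groups, with means of 120.5 and 120.0.

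In experiment #2, 6 members were up-regulated from the Pre to Mid, against 5.3% of all promoters, and the same 6 were down-regulated from the Mid to Post, against 8.65%. These were *Foxo1*, *Foxo3*, *Trim63*, *Fbxo32*, *Fbxo30* and *Fbxo31*. *Trim63* had 93.3 and 105 normalised CPM in the Pre libraries, 674, 460, 499, 724 and 532 in the Mid libraries and 105, 94.9 and 102 in the Post libraries. The Mid libraries were far above the others, with log2 fold changes of 2.54 (standard error 0.20, FDR 0.00011) and −2.52 (standard error 0.17, FDR 1.69e-05, edgeR). *Fbxo32* had 129 and 175 in the Pre libraries, 319 to 518 in the Mid libraries and 152 to 170.3 in the Post libraries, with a log2 fold change of 1.46 in Mid against Pre (FDR 0.00327, edgeR). *Foxo1* had 21.9 and 19.3 in the Pre libraries, 33.1 to 43.1 in the Mid libraries and 15.2 to 17.4 in the Post libraries. Its log2 fold change was 0.88 in Mid against Pre and −1.21 in Post against Mid. *Foxo3* was at 1.08 from the Pre to Mid (FDR 0.0185). *Fbxo21* (0.63, FDR 0.141), *Fbxo40* (0.43, FDR 0.124) and *Foxo4* (0.36, FDR 0.0900) did not pass, although *Foxo4* did without Mid_10 (0.41, FDR 0.0498). *Trim63* and *Foxo1* were called in Mid against Pre without either of the 2 Pre libraries. Without Pre_5 these 2 were the only calls, and without Pre_6 there were 3, with *Fbxo32* added. The log2 fold changes without Pre_5 were 1.06 for *Fbxo30*, 0.93 for *Fbxo31*, 1.25 for *Fbxo32* and 1.30 for *Foxo3*. Without Pre_6 they were 0.98 for *Fbxo30*, 0.80 for *Fbxo31* and 0.90 for *Foxo3*.

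**Figure D3:**
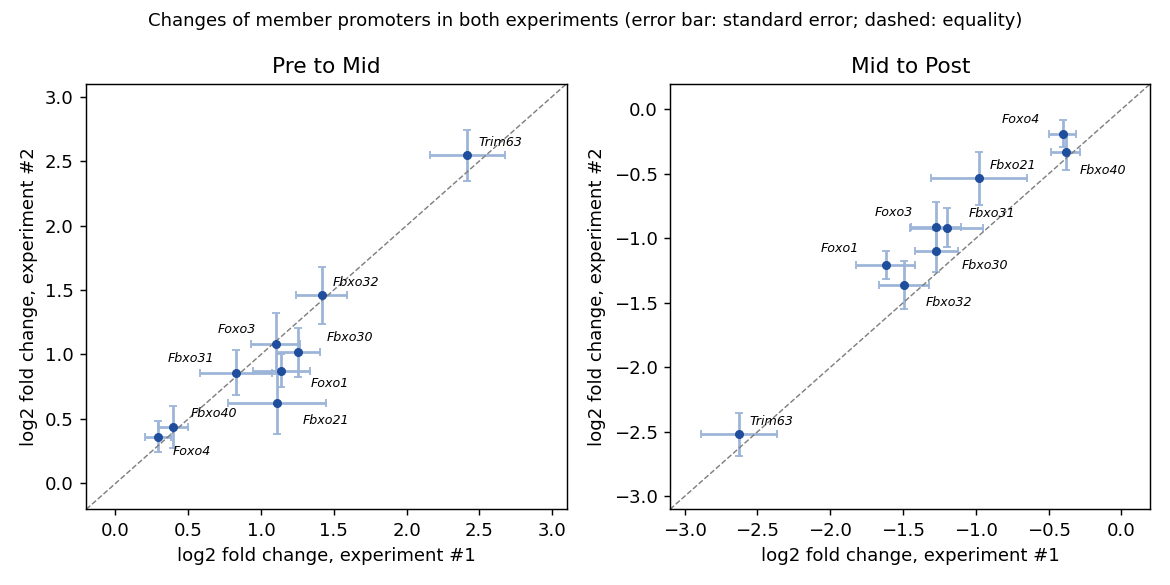
Log2 fold changes of the 9 member promoters in experiment #1 (x axes) and experiment #2 (y axes), from the Pre to Mid on the left and from the Mid to Post on the right. Error bars are standard errors and the dashed line marks equal changes. *Trim63* is farthest from 0 in both panels (2.42 and 2.54 on the left), and *Foxo4* and *Fbxo40* are nearest to 0.

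The change itself was compared between the experiments by an interaction term in the fit of the 26 libraries of these groups. No member was called, for either the rise or the fall (edgeR, 0 of 9 in both, smallest FDR 0.986 and 0.766). Over all 10,819 promoters 0.0% were called in either comparison, with 605 and 704 at an unadjusted p below 0.05 and 0 of the members among them. The likelihood ratio test called 8 and 0 promoters, none of them a member. For *Trim63* the difference of the log2 fold changes was 0.18 with a standard error of 0.36 from the Pre to Mid. The methods name a NextSeq and a HiSeq platform for the experiments, and differences of platform and of batch cannot be told apart. In experiment #2, both Pre libraries and 4 Mid libraries shared lane 3, while Mid_13 and the Post libraries shared lane 4. With lane as a term, 6 members were called from the Pre to Mid. From the Mid to Post such a fit rests on Mid_13, the only Mid library of lane 4, so its calls are not counted here. In it the log2 fold change was −0.76 for *Foxo3* and −1.09 for *Fbxo21*.

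Across the 28 libraries of experiment #1, the promoters most like a member were ranked by Pearson's r of log2(TPM + 0.1), as a description over groups that share treatment, depth and scaling. *Trim63* and *Fbxo32* were near the top of each other's list, with r = 0.97. For *Trim63* the 5 promoters were those of *Ampd3* (AMP deaminase, 0.97), *Fbxo32*, *Pim3* (a serine/threonine kinase, 0.96), *Mafk* (a small MAF transcription factor, 0.96) and *Ell* (an elongation factor of RNA polymerase II, 0.96). For *Fbxo32* they were *Trim63*, *Pim3* (0.95), *Pnpla7* (a lysophospholipase, 0.95), *Zfyve1* (0.94) and *Mafk* (0.94). *Foxo1* had another set, with *Epb41* (a protein of the membrane skeleton, 0.94), *Klf9* (a transcription factor induced by glucocorticoids, 0.94), *Arrdc2* (an arrestin-domain protein, 0.93), *Cobll1* (0.92) and *Mcf2l* (0.92). With normalised CPM, the r of *Trim63* with *Foxo1* was 0.85, with *Foxo3* 0.88, with *Fbxo30* 0.95 and with *Foxo4* 0.44.

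**Figure D4:**
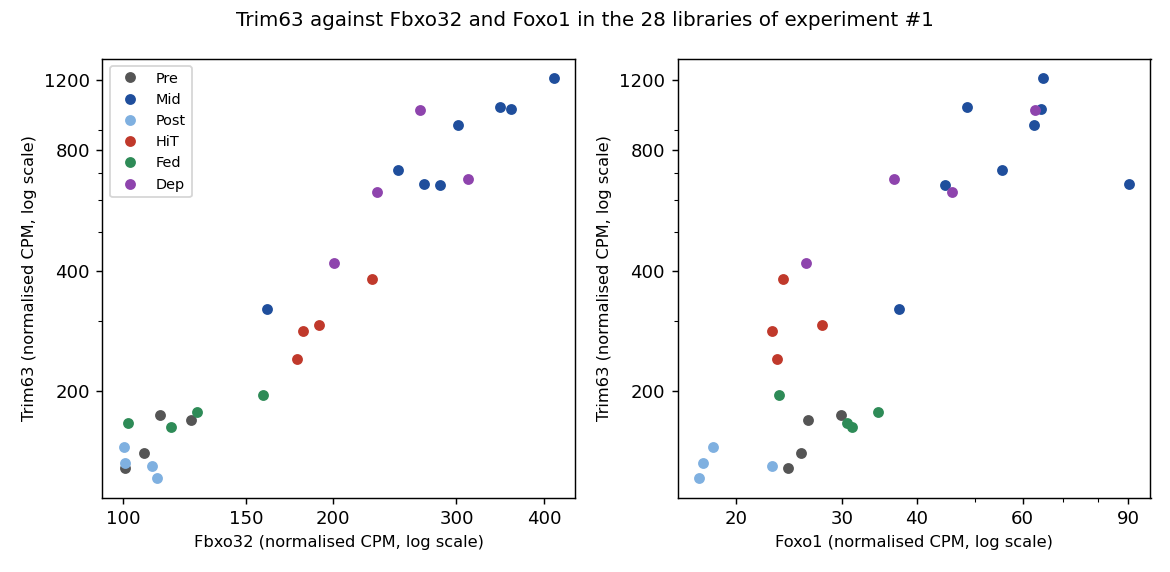
Normalised CPM of *Trim63* (y axes, log scale) against *Fbxo32* (left) and *Foxo1* (right), both on log scales, in the 28 libraries of experiment #1 coloured by group. In the left panel the libraries lie along a single band (r = 0.97), whereas in the right panel the HiT libraries, with *Trim63* at 241 to 382, have *Foxo1* at 23.0 to 27.8, within or just below the levels of the Pre libraries.

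Whether mice with more *Foxo1* or *Foxo3* had more of the ligases was examined within the 8 Mid libraries, over 12 relations of log2(TPM + 0.1). None passed after Benjamini-Hochberg adjustment over the 12 (exact permutation test, two-sided). Pearson's r of *Foxo1* with *Trim63* was 0.65 (exact permutation p = 0.126, adjusted 0.188) and Spearman's rho 0.26 (exact permutation p = 0.536, adjusted 0.977). Without Mid_6 and Mid_3, the libraries farthest from the median, r was 0.53. Mid_6 was among the libraries left out by this rule in all 12 relations. Without Mid_6 alone, r of *Foxo1* with *Trim63* was −0.29, and that of *Foxo3* with *Fbxo32* was −0.58 where it had been 0.65. The largest r was that of *Foxo1* with *Fbxo31*, 0.88 (exact permutation p = 0.0191, adjusted 0.184), which became −0.55 without Mid_6 and Mid_3. The largest rho was that of *Foxo3* with *Fbxo21*, 0.76 (exact permutation p = 0.0368, adjusted 0.441), with r = 0.73 (exact permutation p = 0.0307, adjusted 0.184) and r = 0.83 without Mid_6 and Mid_2. With normalised CPM in place of TPM none of the 12 passed either. There rho was 0.69 for *Foxo3* with *Fbxo21* (exact permutation p = 0.0694, adjusted 0.416) and −0.76 for *Foxo3* with *Fbxo40* (exact permutation p = 0.0368, adjusted 0.416), which was −0.05 in TPM. For *Foxo1* with *Fbxo40* r was −0.50 in normalised CPM and 0.04 in TPM.

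Other genes of the pathway were taken from lists, with 1 promoter per gene, the most active one. The lists were chosen with earlier results of these data known. Over all promoters, 15.4% rose and 14.8% fell between the Pre and Mid groups. Of 14 measured genes for the inputs of FOXO (of 16 listed), 6 rose and 1 fell, with a median log2 fold change of 0.25. *Irs2*, which couples the insulin receptor to PI3K, had 28.4 ± 8.09 TPM in the Pre (SD, n = 4) and 58.8 ± 15 TPM in the Mid group (SD, n = 8; log2 fold change 1.14, FDR 0.000734), and *Pdpk1*, the kinase PDK1 that activates AKT, rose by a log2 fold change of 0.70 (FDR 0.000177, edgeR). *Igf1*, the growth factor upstream of AKT, fell, with 14.5 ± 6.01 TPM in the Pre (SD, n = 4) and 5.66 ± 2.35 TPM in the Mid group (SD, n = 8; log2 fold change −1.24, FDR 0.00261, edgeR). *Igf1* was also lower in the Mid than in the HiT and Fed groups (−1.23 and −1.62), and was at −0.01 from the Pre to HiT.

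Of 19 measured genes known as other FOXO targets in muscle, 16 rose and none fell between the Pre and Mid groups. Over all promoters the shares were 15.4% and 14.8%. The list had 20 names, of which *Foxo6*, itself a FOXO factor, had no cluster. *Irs2* was in this list and in that of the FOXO inputs, so the lists are not separate. The median log2 fold change of the 19 was 0.89. The 2 largest were *Pdk4*, whose kinase limits glucose oxidation (3.42, FDR 2.05e-08), and *Ddit4*, an inhibitor of mTORC1 (2.65, FDR 5.07e-05, edgeR). From the HiT to Mid 10 of the 19 were up-regulated and 1 was down-regulated, against 19.2% and 21.8% of all promoters. From the Pre to HiT 8 were up-regulated and 2 down-regulated, against 18.5% and 14.9%. The log2 fold change of *Pdk4* was 3.38 from the Pre to HiT and 0.05 from the HiT to Mid (FDR 0.898, edgeR). Against the Fed group 16 rose and 1 fell in the Mid group, from the Fed to Dep 14 and 3, from the Mid to Post 0 and 14, and from the Mid to Dep 0 and 0. Over all promoters, 16.6% rose and 18.6% fell from the Fed to Mid, and 18.6% and 20% from the Fed to Dep. From the Mid to Post the shares were 17.5% and 17.5%, and from the Mid to Dep 1.16% and 0.872%. In experiment #2, 13 were up-regulated from the Pre to Mid and none down-regulated, against 5.3% and 4.44% of all promoters.

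The other E3 ubiquitin ligases of muscle moved in both directions. Of 17 measured (of 20 listed), 7 rose and 3 fell between the Pre and Mid groups, with a median log2 fold change of 0.12. Over all promoters 15.4% rose and 14.8% fell. *Asb15*, a SOCS-box protein of muscle, rose (1.71, FDR 0.000221), as did *Cblb*, a ligase that acts on IRS1 (0.94, FDR 3.00e-06), while *Fbxw7*, an F-box protein (−0.94, FDR 1.66e-05), and *Asb2* (−0.66, FDR 5.65e-05, edgeR) fell. Of 14 measured genes for the SCF core, ubiquitin and its conjugating and removing enzymes (of 15 names listed), 8 were up-regulated and none down-regulated, with a median of 0.25. Among them was the deubiquitinase gene *Usp2*, with 81.6 ± 3.83 TPM in the Pre (SD, n = 4) and 124 ± 23.5 TPM in the Mid group (SD, n = 8; log2 fold change 0.68, FDR 7.91e-05, edgeR). Of 9 measured genes for reported substrates or partners of atrogin-1 and MuRF1 (of 10 listed), only *Myod1*, the myogenic transcription factor, was called, and it fell, with 18.9 ± 2.26 TPM in the Pre (SD, n = 4) and 3.84 ± 2.51 TPM in the Mid group (SD, n = 8; log2 fold change −2.17, FDR 3.88e-06, edgeR). The other 8, among them the sarcomere genes *Myh7*, *Ttn*, *Acta1* and *Tnni1*, were not called from the Pre to Mid, with log2 fold changes between −0.15 and 0.29.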

How the data were processed

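CAGE libraries of the soleus from 38 mice were analysed. After trimming, the authors aligned reads to the mm10 build using the tools BWA and HISAT2 (versions not given in the sources used here) and clustered 5′ ends with PromoterPipeline. They deposited unnormalised tag counts per cluster and library, and TPM values relative to all tags of the library, including tags outside clusters. All value columns matched a sample. Group, replicate number and batch came from the labels. Nothing in the counts marked a library as deposited more than once within a group of the same experiment (72 pairs compared). Libraries of different groups were not compared in this way.

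Counts were tested with edgeR 4.0.16 in R 4.3.3 (TMM, glmQLFit and glmQLFTest), without a filter except that clusters without any tag were dropped. The 28 libraries of experiment #1 were fitted together, the 10 of experiment #2 apart, and the 26 Pre, Mid and Post libraries of both with an interaction term. Standard errors are the log2 fold change divided by the square root of F. The normalised CPM values were scaled within each experiment, so levels are not compared between them. P-values were adjusted by the Benjamini-Hochberg method over all clusters, at a threshold of 0.05. Depth per library is given with the results, and tags carry no molecular identifiers. In counts simulated for the Pre to Mid comparison of experiment #1, 34.5% of 200 changes of 1.5-fold (10773 promoters) and 97.5% of 200 changes of 2-fold (10771 promoters) were recovered. Of the unchanged promoters, 2 and 12 were called. Each simulated promoter had the common dispersion of 0.0377. Wider spreads, such as that of *Fbxo21* in the Mid group (SD 59.4% of the mean), were not simulated.

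Named were all member clusters, for each gene list the 2 genes with the largest change in each direction among those called from the Pre to Mid in experiment #1, and the 5 promoters most like *Foxo1*, *Trim63* and *Fbxo32* by Pearson's r of log2(TPM + 0.1). Of the genes this rule names, 1 is not reported here. Motifs were searched in the RefSeq promoter windows in place of windows around the CAGE peaks. Lists use the promoter of each gene with the highest mean TPM. The members and lists were chosen with earlier results of these data known. Alternatives were the likelihood ratio test, DESeq2 1.42.0, filterByExpr, no TMM, upper-quartile scaling, the compared groups alone, the replicate number as a block, lane, other annotation windows and leaving out libraries. Leaving out both Mid_6 and HiT_4, the libraries numbered 1 to 4 alone, and the alternatives for the interaction, were added after seeing the data.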

Additional observations from a re-analysis of the deposited data

Results flagged for a closer look

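Of 63 groups of at least 4 libraries examined across the 9 members, 3 held a library far from the others by Dixon's ratio, where chance alone gives about 1 in 20. *Fbxo21* was at 52.6 normalised CPM in Mid_1, with the next Mid library at 27.3 (Dixon's ratio 0.603). The sum of adipocyte markers was 1530 TPM in Mid_1, the highest of the Mid libraries of experiment #1, and its part in this value was not tested. *Fbxo31* was at 243 in Mid_3, with the next Mid library at 137 (ratio 0.556). *Foxo4* was at 76.6 in Pre_4, with the next Pre library at 104 (ratio 0.849), and without Pre_4 its change from the Pre to Mid did not pass (FDR 0.116, edgeR).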

How the results depend on the processing

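Each of the 99 member changes was recomputed under the alternatives, which gave 1836 values. Of these, 1782 stayed on their side of the threshold, 28 lost and 26 gained a call, and none changed direction. Of the 53 called changes, 35 were called under every alternative run for them. Without TMM, 1 member was called from the Pre to HiT in place of 5, and from the Pre to Mid 6 in place of 9, where *Fbxo31*, *Fbxo40* and *Foxo4* were lost. Over all promoters the Pre to Mid split was 1659 higher and 1594 lower with TMM, 534 and 924 without it, and 1282 and 2308 with upper-quartile scaling. Without TMM the median change of all promoters was 0.11 from the HiT to Mid, −0.12 from the Fed to Mid, −0.13 from the Pre to HiT and −0.23 from the Fed to Dep. With the compared groups alone, 1 member (*Fbxo21*) was called from the Pre to Fed in place of 0. From the Mid to Dep, 1 member in place of 0 was called without Mid_6, with neither Mid_6 nor HiT_4, and without Dep_3.

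With single libraries left out, 8 to 9 members were called from the Pre to Mid, 8 to 9 between Mid and Post, 6 to 8 from the HiT to Mid, 7 from the Fed to Mid, 0 to 1 from the Mid to Dep, 5 from the Pre to HiT, 0 from the Pre to Fed, 5 to 6 from the Fed to Dep and 0 from the Pre to Post. In experiment #2 the rise into Mid had 2 to 7 calls and the fall after it 6. The fit with the replicate block used the libraries numbered 1 to 4 alone, so without Mid_5 to Mid_8. It gave 9, 9, 8, 7, 1, 5, 0, 5 and 0 calls in the 9 comparisons of experiment #1 in the same order, and the same libraries without the block, a setting added after seeing the data, gave 9, 9, 8, 8, 2, 5, 0, 6 and 0. The Mid to Dep calls were *Foxo4* with the replicate block, and *Foxo4* and *Fbxo31* without it. Replicate numbers did not pair the mice, as the deviations of 60 same-numbered pairs correlated between −0.58 and 0.45 and 5 of 24 libraries correlated best with their own number. No paired analysis was possible in experiment #2 because its Mid libraries share no number with the others. Promoter usage within a gene gave no value, as no member had more than 1 cluster within 500 bp.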
